A study of Xenopus laevis with 30 samples.

Results

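The core spliceosome genes of Xenopus laevis were examined in animal cap explants with and without the Sf3b4 morpholino. The set holds 81 of the 49109 entries of the deposited count tables and was chosen by a rule on names: the snRNP proteins (snrnp and snrp symbols, apart from 1 Sm symbol that the rule leaves out and that is not analysed here), the PRPF factors, the LSm family, both U2AF subunits, and single factors such as cdc5l, snw1, sart1, sart3, usp39 and 5 helicases. X. laevis is allotetraploid, and most of its genes exist as a long (L) and a short (S) homeolog. The 81 entries stand for 55 genes, of which 26 have both homeologs in the tables, 15 the L copy alone and 14 the S copy alone. The names of 79 entries are symbols of the reference gene table, and those of prpf8.L and sart1.L are not. Not every LSm-named entry belongs to the spliceosome: Lsm1 acts in mRNA decay, Lsm10 and Lsm11 sit on the U7 particle that processes histone mRNAs, and Lsm12, Lsm14a and Lsm14b lie outside the ring on U6 RNA. These 9 entries follow the name rule and are described as a class of their own.

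All embryos received mRNA for the BMP antagonist noggin and for wnt8 as 2-cell embryos, a combination that turns animal cap cells towards neural crest. Caps were cut at stage 8 to 9 and kept for 8 hours, and RNA came from individual explants. The NWS groups also received the Sf3b4 morpholino, an antisense oligonucleotide against a subunit of the SF3b complex, and the NW groups did not. The labels do not say whether it blocks translation or splicing. Each of the 4 groups holds 3 libraries: NWS with rRNA depletion, NW with rRNA depletion, NWS without depletion and NW without depletion. Nothing in the labels ties a library number to a clutch or day. For NWS without depletion the labels do not fully match: the run titles name 3 libraries, while the source names of the same lanes count only replicates 1 and 2.

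The spliceosome removes introns with 5 small nuclear ribonucleoproteins (snRNPs), each built on a small RNA. U1 marks the 5′ end of the intron and U2, with its SF3b complex, marks the branch point, while U2AF reads the sequences at the 3′ end. U4, U5 and U6 join as the tri-snRNP, helicases then release U1 and U4, and the Prp19 complex accompanies the catalytic steps. Roles named here are those known from human cells and yeast. Splicing factor genes, SF3B4 and EFTUD2 among them, are mutated in human craniofacial syndromes in which tissues of neural crest origin are affected.

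The libraries differed widely in usable depth. Total counts ran from 351902 to 3570364 with depletion and from 3499960 to 4339788 without it. A single pair of entries took 19.3% to 88.3% of a library's counts with depletion and 48.8% to 95.2% without, and the 4 libraries numbered 2 lay at 86.0% to 95.2%. Outside the 5 entries that exceeded 0.5% of some library, 112762 to 2803732 counts were left with depletion and 87172 to 2042925 without. A count of 3 was therefore worth 0.268 to 7.58 CPM (the count over the library's effective size, set by TMM within each preparation) in depleted libraries and 0.110 to 2.76 CPM in undepleted ones. Between 53 and 80 of the 81 entries had counts in a library, and the lowest numbers were 54 in NW depleted library 2 and 53 in NW undepleted library 2. Neural crest markers summed to 280 to 958 CPM in NWS and 359 to 1460 CPM in NW depleted libraries, and to 74.1 to 291 CPM in NWS and 138 to 504 CPM in NW undepleted libraries. Mesoderm markers reached 91.9 CPM in NW depleted library 1 and 14.3 CPM in NW undepleted library 1, against at most 8.29 CPM in NWS depleted and 0.987 CPM in NWS undepleted libraries. Endoderm markers stayed at or under 23.5 CPM in every library. Epidermal markers summed to 27.6 to 330 CPM in NWS and 36.7 to 309 CPM in NW depleted libraries, and to 11.4 to 104 CPM in NWS and 10.9 to 109 CPM in NW undepleted libraries. Neural plate markers summed to 338 to 634 CPM in NWS and 219 to 455 CPM in NW depleted libraries, and to 85.0 to 160 CPM in NWS and 47.9 to 128 CPM in NW undepleted libraries. The part of cell composition in the values below was not tested, and in such bulk samples fewer cells of a type cannot be told apart from less RNA per cell.

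The spliceosome entries together held 93690 counts over the 12 libraries, and U1-70K took the largest share. The snrnp70 homeologs, which encode the U1 protein that binds the first stem-loop of U1 RNA, took 21.6% of these counts. Prpf8.S, the scaffold of the catalytic core, took 8.65%, and the 5 highest entries took 39.1%. These pooled shares weigh libraries by their depth. NW library 3 gave 32801 of the counts with depletion and 23337 without, and there snrnp70 held 14.9% and 12.9%. Per transcript length, levels were read on the deposited FPKM scale, which was set within each preparation. The median FPKM of the set averaged 6.03 in depleted and 2.065 in undepleted libraries. Means and ranges over the 12 libraries therefore mix both scales. Snrnp70.L had a mean level of 249 FPKM over the 12 libraries (25.9 to 825) and snrnp70.S one of 160 FPKM (18.5 to 415). The next level was that of the Sm protein gene snrpe.S at 36.6 FPKM (8.56 to 73.6), followed by ddx46.L, the homolog of the yeast branch-point helicase Prp5, at 24.3 FPKM (5.44 to 56.0). Ranks among the set within a library ran from 2 to 18 for snrpe.S and from 3 to 16 for ddx46.L. They ran from 3 to 27 for prpf8.S (2.7 to 72.6 FPKM) and from 3 to 31 for u2af2.S (4.59 to 69.8 FPKM). The order of these entries is thus not fixed by these data.

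**Figure D1:**
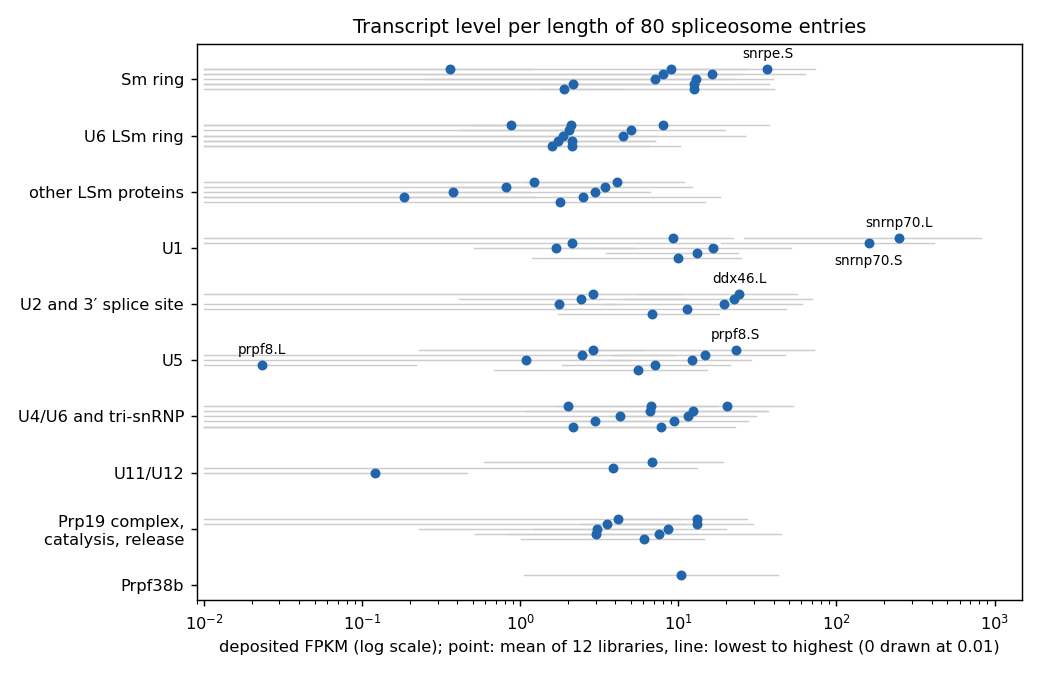
Deposited FPKM of 80 spliceosome entries by class on a log scale; points are means of 12 libraries and lines run from the lowest to the highest library, with 0 drawn at 0.01. The means of snrnp70.L and snrnp70.S, 249 and 160 FPKM, lie apart from those of all other entries. In NW undepleted library 3 these copies had 25.9 and 18.5 FPKM, beside snrpe.S at 24.4 and u2af2.S at 24.0 FPKM. Sart1.L, which had no counts, is not drawn.

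The class medians per length ran between 1.77 FPKM and 11.5 FPKM. The median mean level was 11.5 FPKM for the 8 U1 entries, 8.94 FPKM for the 11 Sm entries, and 9.09 FPKM for the 8 entries of U2 and 3′ splice-site recognition. It was 5.53 FPKM for the 9 U5 entries, 6.65 FPKM for the 12 entries of U4/U6 and the tri-snRNP, and 6.11 FPKM for the 9 entries of the Prp19 complex, catalysis and release. The 11 entries of the U6 LSm ring had a median of 2.08 FPKM, the 9 other LSm entries 1.77 FPKM, and the 3 entries of the minor U11/U12 snRNP 3.86 FPKM. By mean over the libraries of both preparations, 7 entries exceeded 20 FPKM, 42 lay between 3 and 20 FPKM and 32 lay under 3 FPKM. Only 39 of the 81 entries had counts in all 12 libraries.

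Homeolog use differed between genes, and in 4 of the 26 pairs the same copy was higher per length in all 12 libraries. The L copy led throughout for prpf4b, a kinase that acts on tri-snRNP proteins, with 75.9% of the L + S FPKM on average (66.1% to 83.6%). The S copy led throughout for snrpe, where the L share averaged 24.3% (3.61% to 39.5%). The S copy also held nearly all of prpf8 (L share 0.108%, 5 counts in all) and all of sart1, a tri-snRNP protein (no L counts). Neither prpf8.L nor sart1.L is a symbol of the reference gene table, and whether they stand for real copies was not tested. Snrnp70 gave its L copy 58.0% on average (44.2% to 67.0%), and cdc5l its L copy 28.0% (12.3% to 70.6%). Reads that match both copies may be split or lost between them, and the labels do not say how the counting treated them.

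How large a share snrnp70 took depended on the library. Of all spliceosome counts it held 29.8%, 51.3% and 23.0% in NWS depleted libraries 1, 2 and 3, against 34.0%, 46.0% and 14.9% in NW depleted libraries. In undepleted libraries it held 22.6%, 43.5% and 23.1% in NWS and 29.1%, 51.5% and 12.9% in NW. The 4 libraries numbered 2 were thus the highest of their groups, at 43.5% to 51.5%, while the other 8 lay at 12.9% to 34.0%. A single pair of entries took 86.0% to 95.2% of all counts in the libraries numbered 2, the highest share of each group, but also 87.8% in NWS undepleted library 1 and 85.9% in NWS undepleted library 3, where snrnp70 held 22.6% and 23.1% of the spliceosome counts. The part of that dominance in the snrnp70 share was not tested. Of the counts outside the 5 dominant entries, snrnp70 made up 0.882% to 1.04% in the libraries numbered 2 and 0.147% to 0.414% in the others. The remaining spliceosome entries made up 0.975% to 1.15% in libraries numbered 2 and 0.805% to 1.25% in the others, so there the ranges overlap.

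**Figure D2:**
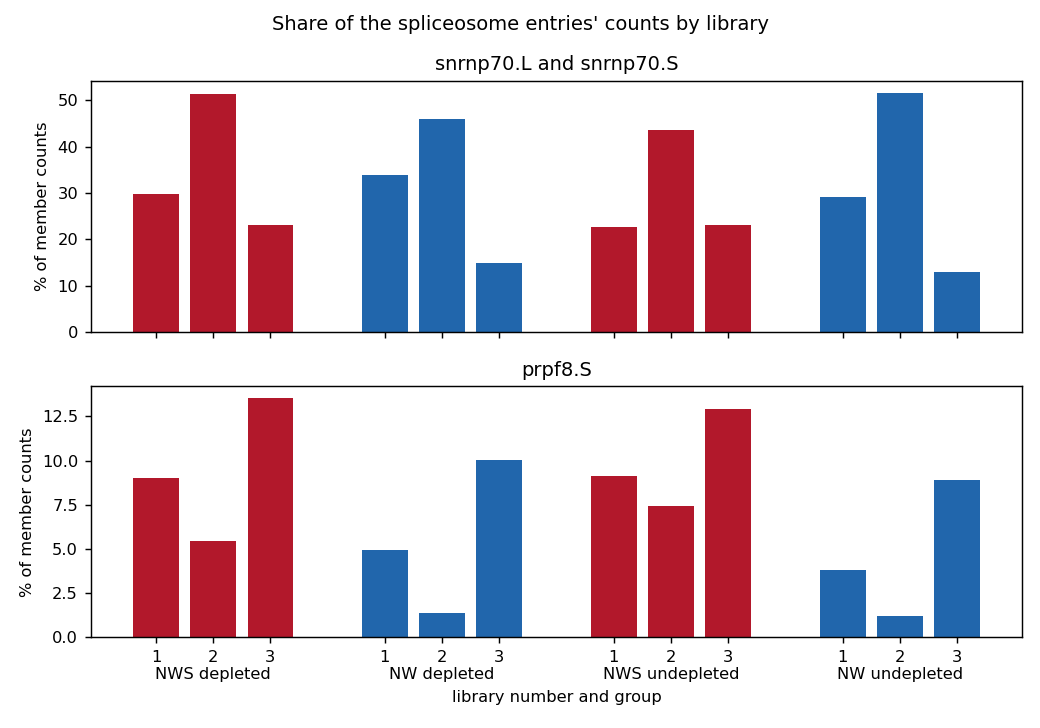
Percent of all spliceosome counts that fell on the snrnp70 homeologs (top) and on prpf8.S (bottom) in each of the 12 libraries, with NWS in red and NW in blue. The snrnp70 bars of libraries numbered 2 reach 43.5% to 51.5%, and each prpf8.S bar of NWS stands above the NW bar of the same number and preparation.

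The first comparison asked whether the Sf3b4 morpholino moved the levels of spliceosome genes in rRNA-depleted libraries. No entry was called, and with 3 libraries per group this does not show that levels were unmoved. Of the 81 entries 56 passed the low-count filter, 0 of them passed at an adjusted p under 0.05 (edgeR quasi-likelihood test), and 1 had an unadjusted p under 0.05. Over all 6585 entries tested 0 passed (0%), with 245 (3.72%) at an unadjusted p under 0.05. DESeq2, run without this filter but with its own built-in filtering, called 0 of 80 spliceosome entries, against 9 of all 27582 entries. In each DESeq2 run, entries left without an adjusted p were counted as not called, so these totals are not numbers of entries tested. NWS was higher for 32 and lower for 24, that is 57.1% higher against 48.5% of all entries tested. The median log2 fold change was 0.18, against -0.03 for all entries tested, and ran between 0.10 and 0.34 when single libraries were left out. Without a call, NWS and NW libraries did not overlap for 3 entries that were higher in NWS, 5.36% of those tested against a background of 4.53%, and for 0 that were lower, against 4.12%.

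Without depletion 56 entries were tested and 0 passed, against 1 of all 6284 entries (0.0159%). Of the 56, 2 had an unadjusted p under 0.05, as had 253 of all entries (4.03%). DESeq2 called 0 of 80 entries of the set, against 19 of all 28381 entries. NWS was higher for 29 and lower for 27 (51.8% higher against 47.9% of all entries), with a median log2 fold change of 0.03 against -0.04. Leaving out single libraries moved that of the set between -0.05 and 0.31. Groups did not overlap for 4 entries higher in NWS (7.14% against 4.25%) and 3 lower (5.36% against 3.76%). The sets tested are not the same: 50 entries passed the filter in both preparations, 6 with depletion alone, 6 without depletion alone and 19 in neither. With the library number as a replicate block, 0 of the 56 passed in either preparation, and 13 (0.197%) of all entries passed with depletion and 14 (0.223%) without.

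**Figure D3:**
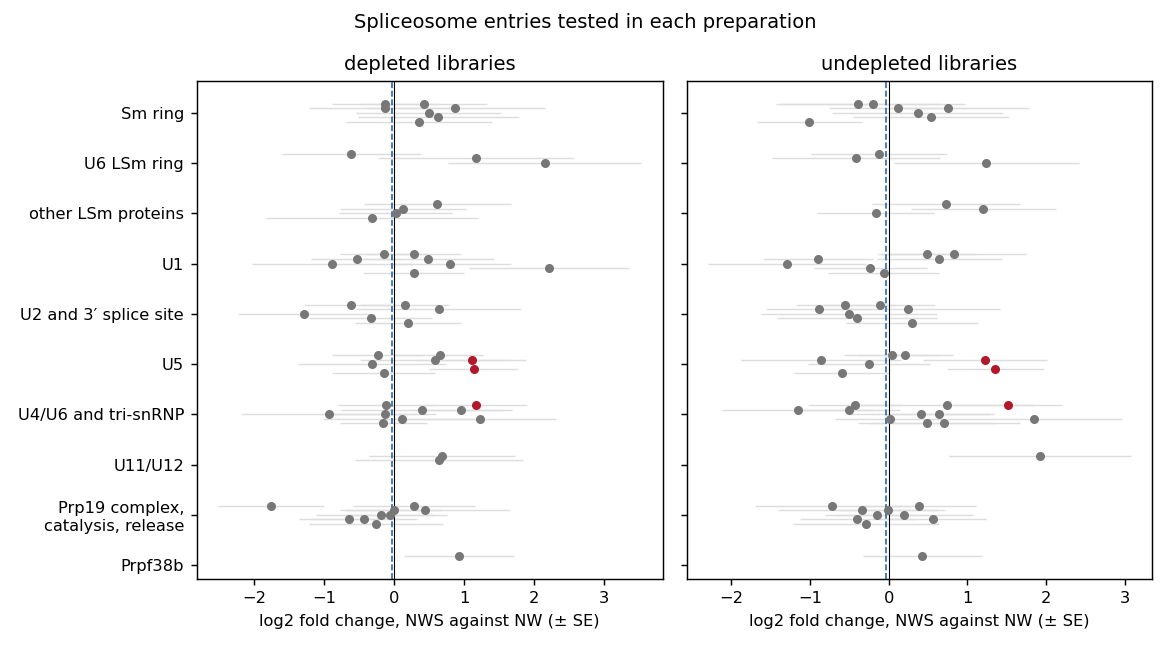
Log2 fold change, NWS against NW, of the 56 spliceosome entries tested in each preparation, by class, with standard errors as bars and the median of all entries tested as a dashed line. Prpf8.S, prpf6.L and prpf3.S (red) are at 1.14, 1.12 and 1.17 with depletion and 1.36, 1.22 and 1.51 without, and no entry passed the test.

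Among the 50 entries tested in both preparations, 16 were higher in NWS in both, 14 lower in both and 20 went opposite ways. Libraries of the same treatment and number deviated together across preparations (r of 0.385 to 0.632), and the labels do not say whether they share RNA, so the preparations are not taken as independent repeats. In 3 of the 50 (6%) all NWS libraries lay above all NW libraries in both preparations, against 65 of 5326 entries overall (1.22%), and in 0 all lay below (0.713% overall). Without the libraries numbered 2 these counts were 3 (6%, against 5.35% overall) and 2 (4%, against 6.06%), so the share of higher entries was then close to the background. The 3 higher entries were the tri-snRNP genes prpf8.S, prpf6.L and prpf3.S in both cases. Groups that do not overlap stay apart when libraries are left out, so this recurrence was fixed in advance.

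Prpf8.S, the S copy of the gene for the largest U5 protein, had 302, 321 and 564 CPM in NWS depleted libraries 1, 2 and 3, against 167, 75.8 and 294 CPM in NW depleted libraries. In undepleted libraries it had 81.2, 120 and 150 CPM in NWS and 38.0, 21.2 and 76.6 CPM in NW. The lowest NWS library stood just above NW library 3 in both preparations, and NW library 2 was the lowest of all. The log2 fold change was 1.14 ± 0.64 (SE) with depletion (unadjusted p 0.0884, adjusted p 0.999, edgeR quasi-likelihood) and 1.36 ± 0.62 without (unadjusted p 0.0375, adjusted p 0.9996). With the replicate block the unadjusted p was 0.0148 with and 0.00588 without depletion, and the adjusted p was 0.747 and 0.469, the smallest of the set in each preparation. Its share of all spliceosome counts was 9.04%, 5.46% and 13.5% in NWS depleted libraries, against 4.94%, 1.38% and 10.04% in NW depleted libraries. In undepleted libraries the share was 9.13%, 7.41% and 12.9% in NWS and 3.81%, 1.20% and 8.92% in NW. NWS was thus the higher at each library number, while NWS depleted libraries 1 and 2 and NWS undepleted library 2 lay under NW library 3 of their preparation.

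Prpf6.L encodes the protein that bridges U5 and U4/U6 in the tri-snRNP. It had 60.8, 38.7 and 52.5 CPM in NWS depleted libraries, against 14.5, 35.4 and 22 CPM in NW depleted libraries, and 11.3, 10.1 and 14.1 CPM in NWS undepleted libraries, against 2.74, 2.76 and 8.95 CPM in NW undepleted libraries, where the value of NW library 2 rests on 3 counts, the floor. In depleted libraries the groups were divided only by the gap between 38.7 CPM in NWS library 2 (27 counts) and 35.4 CPM in NW library 2 (14 counts). The gap was also narrow in undepleted libraries, between 10.1 CPM in NWS library 2 (11 counts) and 8.95 CPM in NW library 3 (243 counts). The log2 fold change was 1.12 ± 0.77 with and 1.22 ± 0.79 without depletion, with unadjusted p 0.160 and 0.136. Its homeolog prpf6.S was at -0.31 ± 1.06 and -0.25 ± 0.78, and with both copies summed the gene was at 0.67 with and 0.50 without depletion.

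Prpf3.S encodes a U4/U6 protein. It had 62.8, 41.6 and 89.3 CPM in NWS depleted libraries, against 20.5, 32.8 and 33.5 CPM in NW depleted libraries. Without depletion the values were 19.5, 26.5 and 28.4 CPM in NWS and 12.2, 2.76 and 9.87 CPM in NW, where the value of NW library 2 rests on 3 counts. The log2 fold change was 1.17 ± 0.73 (unadjusted p 0.122) with and 1.51 ± 0.69 (unadjusted p 0.0370) without depletion, and neither passed after adjustment over all entries.

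**Figure D4:**
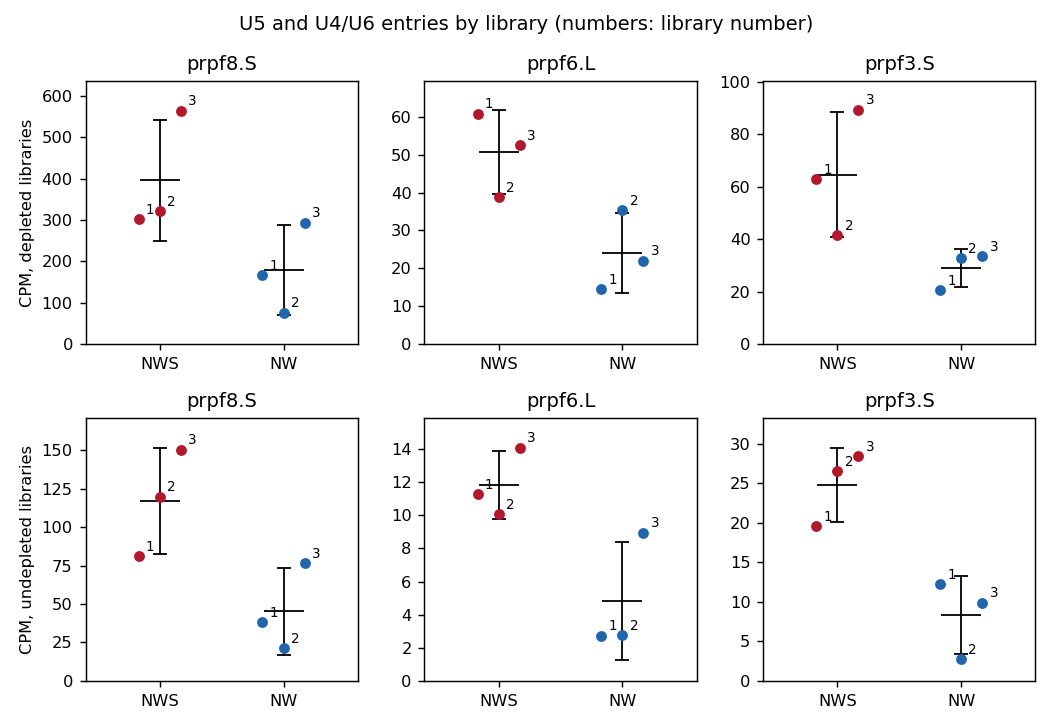
CPM of prpf8.S, prpf6.L and prpf3.S in each library, depleted above and undepleted below, NWS in red and NW in blue, with mean and SD (n = 3) and library numbers. The groups do not overlap in any panel, and the depleted prpf6.L libraries numbered 2 are separated by 38.7 CPM in NWS against 35.4 CPM in NW. The undepleted prpf6.L groups are nearest at 10.1 CPM in NWS library 2 against 8.95 CPM in NW library 3.

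No other U5 or tri-snRNP entry was without overlap in both preparations. Snrnp200, the helicase that unwinds U4 from U6, was split between its copies. Snrnp200.S had 124, 168 and 212 CPM in NWS depleted libraries, against 90.9, 93.4 and 134 CPM in NW depleted libraries, a log2 fold change of 0.66 ± 0.62, and it was at 0.04 ± 0.61 without depletion. Snrnp200.L was at -0.15 ± 0.74 with and -0.60 ± 0.60 without depletion, where 14.5, 25.6 and 26.2 CPM in NWS lay below 31.1, 35.9 and 33.0 CPM in NW. It is 1 of the 3 entries wholly lower in NWS without depletion. Ddx23.S, the helicase that displaces U1 in yeast under the name Prp28, was at -0.23 ± 0.66 and 0.21 ± 0.61. Over the class, NWS was higher for 4 of 7 U5 entries tested in each preparation (median 0.59 with and 0.04 without depletion, or 0.55 and 0.09 with the replicate block).

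Among the U4/U6 and tri-snRNP entries, NWS was higher for 5 of 9 with depletion (median 0.11) and for 8 of 11 without (median 0.48), and the replicate block took the medians to 0.40 and 0.63. Sart1.S had 53.0, 78.9 and 98.5 CPM in NWS and 25.0, 20.2 and 70.5 CPM in NW depleted libraries, where the groups overlap. It had 22.2, 21.0 and 23.4 CPM in NWS and 11, 13.8 and 18 CPM in NW undepleted libraries, where they do not (log2 fold change 0.96 ± 0.72 with and 0.64 ± 0.63 without depletion). Prpf31, which clamps the U4 RNA in the U4/U6 particle, was low and split. Prpf31.L had 2.62, 1.83 and 2.22 CPM in NWS undepleted libraries, against 6.58, 5.52 and 3.31 CPM in NW undepleted libraries, so the groups do not overlap and it is another of the 3 wholly lower entries. These values rest on 2 to 13 counts in NWS and 6 to 90 in NW, and the log2 fold change was -1.15 ± 0.97 (unadjusted p 0.244). Prpf31.S was at 0.40 ± 1.16 with and 0.41 ± 0.93 without depletion. Prpf4b.L, the most abundant entry of this class per length, was at -0.16 ± 0.62 and -0.43 ± 0.60.

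Matched by library number, NWS was higher in all 6 pairs for 5 of the 50 entries (10%, against 4.49% of all 5326), which were prpf8.S, prpf6.L, prpf3.S, sart1.S and the U1 gene snrpc.S. Entries without overlap in both preparations are higher in every pair by construction. This holds for prpf8.S, prpf6.L and prpf3.S, and for 65 of all entries. Only sart1.S and snrpc.S are further entries, so this count largely repeats the one of entries without overlap. No entry was lower in all 6 pairs (0%, against 3.62%). Sart1.S, ddx23.S and prpf4b.L were named after their values were seen.

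Among the U1 entries tested, NWS was higher for 5 of 8 with depletion (median 0.28) and for 3 of 7 without (median -0.06). The replicate block took these medians to 0.37 and 0.28. The snrnp70 copies spread widely between the library numbers of each group. Snrnp70.L had 593, 1880 and 377 CPM in NWS depleted libraries 1, 2 and 3, against 685, 1437 and 230.0 CPM in NW depleted libraries. In undepleted libraries it had 94.1, 380 and 118 CPM in NWS and 163, 475 and 59.0 CPM in NW. Library 2 was the highest in every group and the groups overlap throughout. The log2 fold change was 0.28 ± 0.73 with and -0.23 ± 0.72 without depletion, and snrnp70.S was at 0.28 ± 0.68 and -0.06 ± 0.70. Without the libraries numbered 2, snrnp70.L in the undepleted libraries was at 0.01 and snrnp70.S at 0.60.

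Of the other U1 entries, snrpc.S (U1-C, which steadies the pairing with the 5′ splice site) was at 0.80 ± 0.86 with and 0.64 ± 0.80 without depletion. Snrpa.S (U1-A) was at 0.49 ± 0.94 and 0.83 ± 0.92, and single libraries left out moved it between 0.19 and 0.77 with and between 0.39 and 1.83 without depletion. Prpf40b.S, a homolog of a yeast U1 protein, had the highest log2 fold change of the set with depletion, 2.22 ± 1.14 (unadjusted p 0.0632). It was chosen after its values were seen: its values were 7.85, 7.17 and 58.9 CPM in NWS, against 3.49, 0 and 10.3 CPM in NW, so that NWS library 3 alone stands high. Its L copy was at -0.89 ± 1.15 with depletion and -1.30 ± 1.00 without. Without depletion 2.22, 1.83 and 1.97 CPM in NWS lay below 5.85, 7.36 and 2.43 CPM in NW, the last of the 3 wholly lower entries. The NWS values rest on 11, 2 and 8 counts. In NWS library 2 the floor of 3 counts was worth 2.75 CPM, above the 2.43 CPM of NW library 3, so this separation is not resolved.

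At the U2 step, no entry passed. Of the tested entries of U2 and 3′ splice-site recognition, NWS was higher for 3 of 6 with depletion (median -0.09). It was higher for 2 and lower for 5 of 7 without (median -0.40). With the replicate block these medians were -0.16 and -0.06. U2surp.S, a U2-associated protein, had 66.7, 96.1 and 95.8 CPM in NWS depleted libraries, against 140, 217 and 44.8 CPM in NW depleted libraries, and the log2 fold change was -0.62 ± 0.67 with and -0.89 ± 0.67 without depletion. NW library 3 lay below all NWS libraries in both preparations, so the groups overlap. U2af2.S, the subunit that binds the pyrimidine tract, had 53.0, 88.9 and 108 CPM in NWS and 28.5, 15.2 and 169 CPM in NW depleted libraries, at 0.20 ± 0.76 and, without depletion, -0.12 ± 0.70. U2af1, the subunit that reads the AG at the intron end, was at -1.30 ± 0.94 (L) and -0.34 ± 0.88 (S) with depletion, and at -0.40 ± 1.01 (L) and 0.30 ± 0.84 (S) without. Ddx46.L was at 0.16 ± 0.62 and -0.55 ± 0.63. The genes of the U2-specific proteins had few counts: snrpb2.S (U2-B′′) was at 0.64 ± 1.18 and -0.50 ± 1.12, snrpb2.L (0.24 ± 1.17) was tested without depletion alone, and snrpa1.S (U2-A′), with at most 23 counts outside the NW libraries numbered 3, passed the filter in neither.

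**Figure D5:**
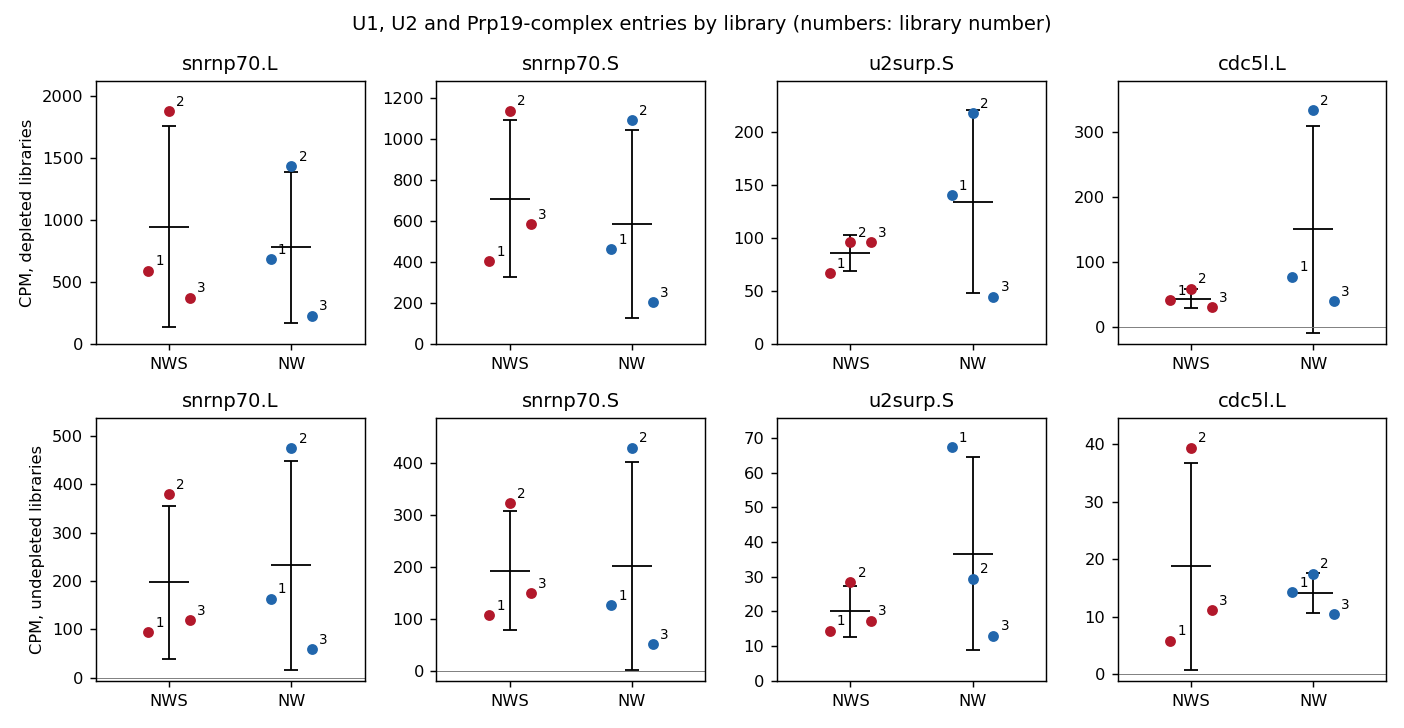
CPM of snrnp70.L, snrnp70.S, u2surp.S and cdc5l.L in each library, depleted above and undepleted below, NWS in red and NW in blue, with mean and SD (n = 3) and library numbers. Both snrnp70 copies peak in library 2 of every group, and NW depleted library 2 carries cdc5l.L at 333 CPM.

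In the Prp19 complex and among the factors of catalysis and release, NWS was lower for 7 of 9 entries with depletion (median -0.18) and for 6 of 9 without (median -0.15), none of which passed, and with the replicate block the medians were -0.31 and -0.11. Cdc5l.L, a core protein of the complex, had the smallest unadjusted p with depletion, 0.0274, at -1.77 ± 0.76 (adjusted p 0.999), and was named for that after its values were seen. It had 41.2, 58.8 and 30.4 CPM in NWS, against 77.4, 333 and 39.5 CPM in NW, where NW library 2 alone stands high and the groups overlap. Without depletion it was at 0.38 ± 0.73, with NWS library 2 at 39.3 CPM the highest. Prpf19.L, the ubiquitin ligase of the complex, was at -0.18 ± 0.94 and 0.20 ± 0.88. The helicases that drive the second catalytic step and release, dhx38.L and dhx8.S, were likewise named after their values were seen. Dhx38.L was at -0.26 ± 0.96 with and -0.29 ± 0.93 without depletion, and dhx8.S at 0.28 ± 0.87 with and -0.72 ± 0.98 without.

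Among the Sm genes, whose proteins form the ring around U1, U2, U4 and U5 RNA, NWS was higher for 5 of 7 entries tested with depletion (median 0.42) and 4 of 7 without (median 0.12, or 0.64 with the replicate block). Snrpe.S had 54.9, 41.6 and 17.5 CPM in NWS depleted libraries, against 52.4, 22.7 and 46.8 CPM in NW depleted libraries, at -0.13 ± 0.76. In undepleted libraries it had 17.1, 6.41 and 9.87 CPM in NWS and 31.8, 16.6 and 19.9 CPM in NW, at -1.01 ± 0.67, with NWS library 1 just above NW library 2. Only 3 of the 11 entries of the U6 LSm ring and 2 of the 3 U11/U12 entries were tested with depletion, and 3 of 11 and 1 of 3 without. The U11/U12 entry tested without depletion had the highest log2 fold change of the set there, 1.93. Its groups overlap and it did not pass.

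The common biological coefficient of variation was 0.743 with and 0.687 without depletion, and the median over the tested spliceosome entries was 0.708 and 0.660, against 0.767 and 0.700 over all entries tested. It was lowest for snrnp200.S (0.562) with and for snrnp200.L (0.535) without depletion.

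The genes of the SF3a and SF3b complexes, which include the target of the morpholino, are not members of the set and were listed beside it. Of their 14 entries 12 were tested with and 13 without depletion, and 0 passed. NWS was higher for 4 and lower for 8 with depletion (median -0.25) and higher for 6 and lower for 7 without (median -0.07). With depletion NWS libraries lay wholly below NW for 2 of the 12 and wholly above for 0, against 4.12% and 4.53% of all entries. Without depletion the groups overlapped for each of the 13 entries tested, against 3.76% wholly lower and 4.25% wholly higher of all entries. Sf3b4.L had 27.5, 30.1 and 3.68 CPM in NWS and 11, 25.3 and 21.0 CPM in NW depleted libraries, at 0.10 ± 0.97, and sf3b4.S was at -0.87 ± 1.03. Without depletion the copies were at 0.34 ± 0.81 and -0.13 ± 0.83. A morpholino need not lower the level of its target's RNA, and whether the protein was reduced cannot be read from these values. Sf3b1.S, the largest SF3b subunit, was at 0.68 ± 0.69 with and -0.27 ± 0.62 without depletion. Of the U5 and tri-snRNP partners outside the name rule (17 entries, 12 and 11 tested), the further Prp19-complex, catalytic and release factors (31 entries, 20 and 19 tested) and the snRNP assembly factors (23 entries, 7 tested in each preparation), 0 passed in either preparation. NWS was higher for 7 of 12 (median 0.14) and 7 of 11 (0.07) of the partners, for 12 of 20 (0.14) and 9 of 19 (-0.12) of the further factors, and for 4 of 7 (0.35) and 4 of 7 (0.49) of the assembly factors, each with and then without depletion. With the replicate block these medians were 0.24 and 0.38 for the partners, 0.49 and -0.12 for the further factors, 0.20 and 0.52 for the assembly factors, and -0.40 and -0.02 for SF3a and SF3b.

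The depleted libraries were then set against the undepleted ones. With all 12 libraries in one fit, 75 of the 81 entries were tested between depleted and undepleted libraries, and 0 passed, against 5 of 13224 entries (0.0378%). With treatment and library number as a replicate block 0 of the 75 passed, against 0.0756% of all entries. Depleted libraries were higher for 29 and lower for 46 entries (38.7% higher against 48% of all entries), with a median log2 fold change of -0.09 against -0.03 for all entries. The median of the set ran between -0.35 and 0.11 when single libraries were left out, so its sign is not fixed. Of the set 1 entry had an unadjusted p under 0.05, against 1.94% of all entries: lsm6.L of the U6 ring, at -2.56 ± 1.16 (unadjusted p 0.0320, edgeR), named after its values were seen, with 0, 0 and 1 counts in NWS and 5, 1 and 56 in NW depleted libraries, against 14, 7 and 6 in NWS and 14, 0 and 30 in NW undepleted libraries. DESeq2 called 0 of 80 entries of the set, against 2 of all 31244 entries. In the test of whether the difference between NWS and NW depended on the preparation, 0 of 75 entries passed, 0 had an unadjusted p under 0.05, and 0 of 13224 entries passed (0%), with 231 (1.75%) at an unadjusted p under 0.05. The interaction was above 0 for 37 of the 75 (49.3%, against 47.6% of all entries), with a median of -0.02 against -0.07, and the sign of the set's median is not fixed, since it ran between -0.33 and 0.23 when single libraries were left out. The interaction of prpf8.S was -0.29 ± 0.88, that of prpf6.L -0.16 ± 1.10 and that of prpf3.S -0.36 ± 1.00 on the log2 scale. When treatment and library number formed a replicate block, 0 of the 75 passed in the interaction. Of the 75, 2 (2.67%) then had an unadjusted p under 0.05 (edgeR), against 1.75% of all entries.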

How the data were processed

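Total RNA libraries of animal cap explants were analysed: 30 sequencing lanes of 12 libraries, 3 per group. Groups come from the treatment labels and library numbers from the run titles, which name 3 undepleted NWS libraries where the source names count replicates 1 and 2. The tools that made the tables were bcl2fastq, STAR, featureCounts and DESeq2 per the submitters' processing notes, which name no version. For the build, the annotation, strandedness and multimapping reads, nothing is given in the sources used here. Each preparation has raw counts per entry and library, deposited by the authors with lanes summed. It also has FPKM values, which per the deposited tables follow median-of-ratios size factors of the counts (largest difference 0.000106% with and 0.00111% without depletion) and were used only to compare levels between genes. No column was left unused (0).

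The count tests ran in R 4.3.3 with edgeR 4.0.16 (TMM, filterByExpr with a minimum count of 10, quasi-likelihood test, Benjamini-Hochberg over all entries tested, adjusted p under 0.05), each preparation apart. Both preparations were fitted together for the comparison of preparations and the interaction. Standard errors (SE) were back-calculated from each quasi-likelihood test, as the absolute log2 fold change over the square root of its F statistic. DESeq2 1.42.0, other scaling, no filter, a replicate block, libraries left out, dominant entries left out and summed homeologs were alternatives. CPM values carry the effective sizes of 1 preparation and are not compared between preparations. A count of 3 was the floor, and floors cover counting error only.

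The labels do not pair library numbers. Deviations from the group means of same-numbered NWS and NW libraries correlated at 0.141, 0.248 and 0.154 with depletion and 0.207, 0.255 and 0.128 without. For different numbers r ran from -0.188 to 0.0614 with depletion and from -0.208 to 0.0389 without. Since deviations were taken from group means, positive r at the same number pushes r at other numbers down. The range for different numbers is therefore not a separate contrast. From these weak correlations numbers were used as a replicate block beside the main fit, which is unpaired. The part of shared library depth in them was not tested. The labels speak of replicates without naming separate clutches, so p-values measure the spread between these libraries. Named entries are those that passed, those without overlap between NWS and NW in both preparations, the 4 highest by mean FPKM, fixed entries of each snRNP, and sf3b4 and sf3b1. Other entries were named after their values were seen. The members and lists were chosen with earlier results of these data known. Reference names come from Xenopus_laevis_v10.1. Figures used matplotlib 3.10.9.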

Additional observations from a re-analysis of the deposited data

How the results depend on the processing

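The number of spliceosome entries called was 0 in each of the 4 comparisons under every alternative run: median-of-ratios size factors, no low-count filter, DESeq2, the replicate block, each library left out, the libraries numbered 2 left out, dominant entries left out and homeologs summed. With the replicate block the smallest adjusted p within the set was 0.747 with and 0.469 without depletion (edgeR), and the medians moved to 0.24 and 0.03; it changed no call of the set. Without NW library 3, 5 entries with depletion (9.43%, against 5.21% of all entries tested) and 6 without (10.7%, against 6.08%) had an unadjusted p under 0.05, and the smallest adjusted p of the set was 0.661 and 0.543. Without a filter the median of all entries was -0.66 with and -0.36 without depletion, and that of the set -0.05 and 0.02. Prpf8.S, prpf6.L and prpf3.S kept their direction under all alternatives run. They were named because their groups do not overlap in either preparation, so leaving out libraries could hardly turn it. That constancy therefore adds no support. Leaving out single libraries, prpf8.S was at 0.75 to 1.72 with and 1.04 to 2.01 without depletion, prpf6.L at 0.87 to 1.43 and 0.93 to 2.14, and prpf3.S at 0.84 to 1.42 and 1.19 to 1.87. By checks chosen after seeing the data, the entries without overlap in both preparations numbered 3 higher and 0 lower with median-of-ratios factors (1.35% and 0.638% of all entries), 5 and 0 without the libraries numbered 1 (4.58% and 4.36% of all entries), 3 and 2 without those numbered 2 (5.35% and 6.06%), and 4 and 1 without those numbered 3 (5.73% and 4.6%). With libraries left out, prpf8.S, prpf6.L and prpf3.S are among the higher entries by construction. Of the named entries, those named after their values were seen included, 31 values changed sign under a setting other than a single library left out, none with a call. With homeologs summed, a single copy was set against both copies together, which is not the same quantity. With depletion these copies were snrpe.S, snrnp200.L, sf3b4.L, prpf6.S and prpf40b.L. Without depletion they were prpf31.S, snrnp200.S, snrpb2.L, u2af1.L, sf3b4.S and prpf6.S. The cause of the other changes was not tested. With depletion, sf3b4.L was at -0.21 with the replicate block. Without the libraries numbered 2, ddx46.L was at -0.15, prpf19.L at 0.019, snrnp200.L at 0.11, u2af2.S at -0.29, sf3b4.L at -0.12, ddx23.S at 0.62, prpf4b.L at 0.31 and dhx8.S at -0.24, and with homeologs summed snrpe was at 0.0029, snrnp200 at 0.35, sf3b4 at -0.29, prpf6 at 0.67 and prpf40b at 0.90. Without depletion, the replicate block gave snrnp70.S at 0.28, snrpb2.L at -0.016, u2af2.S at 0.034 and cdc5l.L at -0.020. Without the libraries numbered 2, snrnp70.L was at 0.0090, snrnp70.S at 0.60, snrpb2.L at -0.81, sf3b4.S at 0.28, prpf4b.L at 0.065, cdc5l.L at -0.48 and dhx8.S at 0.44, and with homeologs summed prpf31 was at -0.25, snrnp200 at -0.19, snrpb2 at -0.015, u2af1 at 0.057, sf3b4 at 0.086 and prpf6 at 0.50. Leaving out single libraries took these entries across 0 with depletion: ddx46.L (-0.27 to 0.37), prpf19.L (-0.68 to 0.24), prpf31.S (-0.66 to 3.41), sf3b4.L (-0.32 to 0.61), snrnp200.L (-1.25 to 0.38), snrnp70.L (-0.67 to 1.01), snrnp70.S (-0.22 to 1.04), snrpb2.S (-0.75 to 1.65), snrpe.S (-0.47 to 0.20), u2af1.S (-1.15 to 0.080), u2af2.S (-0.27 to 1.92), prpf6.S (-1.01 to 0.26), ddx23.S (-0.55 to 0.48), prpf4b.L (-0.44 to 0.31), dhx38.L (-1.29 to 0.16) and dhx8.S (-0.11 to 0.77). It did so without depletion for ddx46.L (-0.88 to 0.12), prpf19.L (-0.32 to 0.90), prpf31.S (-0.14 to 0.97), sf3b4.S (-0.53 to 0.22), snrnp200.S (-0.26 to 0.47), snrnp70.L (-1.02 to 0.82), snrnp70.S (-0.54 to 1.11), snrpb2.L (-0.38 to 0.83), u2af1.L (-0.84 to 0.61), u2af1.S (-0.11 to 0.77), u2af2.S (-0.86 to 1.05), ddx23.S (-0.069 to 0.50), cdc5l.L (-0.63 to 0.85) and dhx38.L (-1.74 to 0.68). Of the 31 named values that kept their sign, 21 moved by over 1.5 times when a single library was left out, among them those of snrpa.S, snrpc.S (0.49 to 1.27 with and 0.24 to 1.10 without depletion), u2surp.S (-1.002 to -0.14 and -1.25 to -0.068), sf3b1.S (0.28 to 1.29 and -0.65 to -0.038), prpf40b.S (0.49 to 3.41 with depletion) and cdc5l.L (-2.18 to -0.47 with depletion). The filter left out 19 entries in both preparations, and an entry at 3 counts or fewer cannot be told from 0.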
